A study of Homo sapiens with 18 samples.

Results

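The comparison described here is that of SW620 cells silenced for Lonp1 and left to recover from heat with silenced cells that were never heated. SW620 is a human colon cancer cell line. Cells transfected with siRNA against Lonp1 (siLonp1) were either kept at 37 °C (Ctrl) or held at 42 °C for 1 h and returned to 37 °C for 1 h (HS+REC), and each group had 3 RNAseq libraries that the study describes as independent biological replicates. All 6 libraries carry the siRNA, so that the comparison gives the effect of heat and recovery at low Lonp1, and the sources used here do not name the siRNA sequence behind the RNAseq libraries. Cells that were silenced and collected at the end of heat (HS), and the same conditions with a scramble siRNA, 3 libraries each, are used only beside these values. A gene entered when its CPM, the counts scaled to a common library size, were above 1 in at least 3 of the 6 libraries, and 12435 of the 26485 gene symbols did. By the same limit over 3 of the 18 libraries of the whole series 12832 symbols enter, and 12475 do in the 6 scramble libraries of Ctrl and HS+REC.

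Lonp1 is a protease of the mitochondrial matrix that degrades damaged proteins and helps others to fold. Heat unfolds proteins, and in human cells the transcription factor HSF1 is then released from chaperones, binds DNA as a trimer at heat shock elements and drives the genes of the chaperones that refold or clear the damaged proteins. When the heat ends, the chaperones bind HSF1 again and the response is shut down, so that a recovering cell holds both mRNAs made during heat and mRNAs made later. The integrated stress response and the metal response, which act through the transcription factors ATF4 and MTF1, can be set off by the same stresses.

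The heat shock element is shown first, because most of the 12 largest rises described further on were genes of the chaperone lists. It was searched as GAANNTTCNNGAA or TTCNNGAANNTTC, which are the reverse complement of each other and so cover both strands, in the 250 bases before each start listed by RefSeq on GRCh38.p14. Overlapping matches were counted as 1 run. Of 30 genes raised after recovery in the lists of HSP70, J-domain, HSP90, small heat shock, BAG and chaperonin genes, 27 had a listed promoter and 6 of these (22.2%) held a match, while 0 of 55 listed chaperone genes that were not called did. HSPA1L, CRYAB and HSPB8, counted among the 30, passed the filter on low counts only through HS+REC. Over all 27305 genes with a RefSeq promoter, 152 (0.557%) held a match. Of 383 raised genes with a listed promoter 11 (2.87%) did, against 41 of 9930 genes tested (0.413%). Of 11 raised genes of the integrated stress response 0 did. Searched alike, TGACGTCA (CRE) was held by 2.61% of these 383 genes, against 3.55% of those tested. For TGCGCNC (metal response element core) the shares were 27.9% and 32.3%. The 6 genes and HSPD1, the mitochondrial HSP60 described further on, are printed 5′ to 3′ on the strand of the gene with the match in capitals, and a match in these letters is a description and not a tested binding site.
HSPA6, chr1:161524446-161524498, plus strand: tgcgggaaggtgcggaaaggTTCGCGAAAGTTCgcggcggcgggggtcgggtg
HSPA8, chr11:123062159-123062211, minus strand: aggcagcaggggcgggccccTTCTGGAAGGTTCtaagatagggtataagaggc
DNAJB6, chr7:157336853-157336905, plus strand: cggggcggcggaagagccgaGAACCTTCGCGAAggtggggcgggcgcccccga
HSP90AA1, chr14:102087100-102087152, minus strand: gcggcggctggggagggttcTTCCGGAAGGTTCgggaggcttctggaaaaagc
HSP90AB1, chr6:44247811-44247863, plus strand: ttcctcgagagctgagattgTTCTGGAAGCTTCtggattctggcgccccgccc
CHORDC1, chr11:90223067-90223129, minus strand: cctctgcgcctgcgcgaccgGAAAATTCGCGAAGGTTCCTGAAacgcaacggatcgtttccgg
HSPD1, chr2:197500048-197500090, minus strand: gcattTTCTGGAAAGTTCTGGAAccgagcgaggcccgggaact

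The printed match lay 74 to 62 bases before the start in HSPA6, 55 to 43 in HSPA8, 88 to 76 in HSP90AA1 and 112 to 100 in HSP90AB1. HSPA8 and HSP90AB1 each held another separate match, farther from the start, that is not printed. CHORDC1 had 3 overlapping matches in 1 run. Of the 12 genes with the largest rises named below, 11 had a listed promoter and only HSPA6 held these letters in the window. Sites that depart from the fixed letters were not counted.

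The 6 libraries held 38838617 to 45024299 counts, and TMM factors, which scale the libraries to each other, lay between 0.929 and 1.02. The silenced gene was checked first. LONP1 stood at 213 to 225 CPM in the 3 Ctrl scramble libraries and at 19.2, 22.3 and 19.3 CPM in the 3 Ctrl siLonp1 libraries, with no overlap. Of the called genes described below, HS+REC replicate 3 was the lowest of its group for 350 of 530 raised genes and the highest for 92 of 146 lowered genes. RNA28S5, a ribosomal RNA that poly(A) selection should remove and that was looked up after its values were seen, stood at 4.34, 6.36 and 10.7 CPM in Ctrl and at 64.4, 24.3 and 16.1 CPM in HS+REC. The part of these differences between libraries in the results was not tested. Of 12 markers of intestinal epithelium 8 were tested and 0 were called by edgeR or DESeq2 (1 higher and 4 lower at an unadjusted p under 0.05), with CDX1 at no count in the 6 libraries. Of 9 fibroblast markers 3 were tested, and the sum over the list rose from 24.0 to 25.6 CPM in Ctrl to 48.2 to 49.5 CPM in HS+REC, with COL3A1 and PDGFRA at no count. That sum was set by COL1A1, which was 9.63 ± 0.628 CPM (SD, n = 3) in Ctrl and 33.4 ± 1.37 CPM in HS+REC. Of 9 leukocyte markers 3 were tested, the sum stood at 16.5 to 18.5 CPM in Ctrl and 18.2 to 22.8 CPM in HS+REC, with HLA-DRA at no count. CD14, a monocyte receptor, was the only one of the 3 called, with 18, 10 and 17 counts in Ctrl and 81, 55 and 54 counts in HS+REC, a rise of 2.06 (SE 0.28) on the log2 scale. Its part in the results was not tested. Of 6 endothelial markers 1 was tested, with KDR and CLDN5 at no count.

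After recovery 530 genes (4.26% of those tested) were raised and 146 (1.17%) were lowered, by edgeR's quasi-likelihood test, with a Benjamini-Hochberg adjusted p no larger than 0.05 and more than a 2-fold change. The rises were the larger ones. More than 4-fold changes numbered 158 rises (1.27%) and 1 fall (0.00804%), that of UBD. Without a fold limit 3141 genes (25.3%) were higher and 3297 (26.5%) were lower, and the median log2 fold change of all genes was 0.00. The HS+REC libraries lay above each Ctrl library for 3422 genes (27.5%) and below each for 3553 (28.6%). Of the 530 raised genes 128 had no Ctrl library above the filter of 1 CPM, and of the 146 lowered genes 11 had no HS+REC library above it, so that these passed through the group where they are high and had to differ. Among the genes named below they were HSPA1L, CRYAB, HSPB8, MT1H, MT1M, NR4A3, MIR1247, ARL14, CHRNA2, MRC1 and DAZL, beside CD14 above, and of the lowered genes UBD, NTF3, ZNF876P and NIPAL4. These are bulk samples, in which fewer cells of a type and less RNA per cell cannot be told apart.

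**Figure D1:**
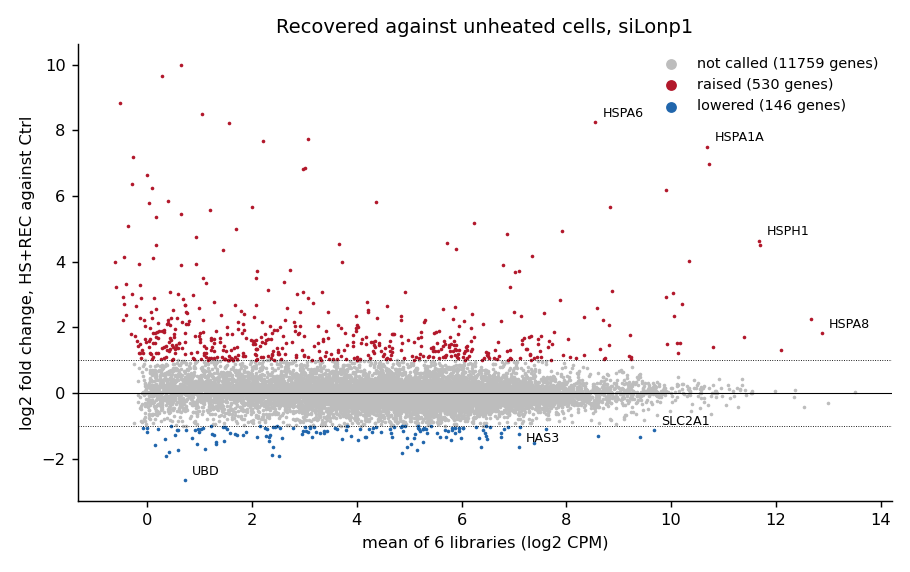
Log2 fold change of HS+REC against Ctrl in siLonp1 cells (vertical axis) against the log2 of the mean CPM of the 6 libraries (horizontal axis), 1 point for each of the 12435 genes tested. Red points are the 530 raised genes and blue points the 146 lowered genes, dotted lines mark a 2-fold change, and the red points reach far higher than the blue ones reach low.

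The largest rises among genes with at least 10 counts in each library were those of the inducible HSP70 proteins and their partners. HSPA6, an HSP70 that is almost silent without stress, went from 3.11, 1.99 and 2.30 CPM in Ctrl to 1013, 761 and 471 CPM in HS+REC. HSPA1A, the major inducible HSP70, went from 17.5, 18.7 and 18.2 CPM to 3909, 3185 and 2789 CPM, and its near copy HSPA1B from 26.9, 26.9 and 27.0 CPM to 4111, 3458 and 2513 CPM. Each HS+REC library of these genes stood far above each Ctrl library. The log2 fold changes were 8.25 (SE 0.27) for HSPA6, 7.51 (SE 0.12) for HSPA1A and 6.96 (SE 0.14) for HSPA1B. HSPA1A and HSPA1B are nearly identical, HSPA6 has a close copy in HSPA7, and the sources do not say how shared reads were counted, so that the split between copies is uncertain. BAG3, which hands HSP70 clients to autophagy, rose by 6.20 (SE 0.11), from 25.8 ± 2.33 to 1895 ± 327 CPM (SD, n = 3).

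HSPA1L, the gene beside HSPA1A on the other strand, rose by 5.81 (SE 0.15) on the log2 scale, DNAJA4, a J-domain cochaperone, by 5.66 (SE 0.09), and HSPH1, the nucleotide exchange factor HSP110, by 4.65 (SE 0.09). DNAJB4, another J-domain protein, rose by 4.57 (SE 0.16). CLU, the secreted chaperone clusterin, rose by 4.85 (SE 0.13). Outside the chaperones, CHAC1, which degrades glutathione, rose by 5.19 (SE 0.15), DEDD2, a death-effector domain protein, by 4.93 (SE 0.11), and PGF, placental growth factor, by 4.53 (SE 0.13). The 12 largest rises and falls were chosen among genes whose groups did not overlap. Genes with few counts in Ctrl are given as counts. CHRNA2, a nicotinic receptor subunit, had 0 counts in each Ctrl library and 152, 132 and 94 counts in HS+REC. MRC1, the mannose receptor, had 0 in Ctrl and 130, 120 and 46 counts in HS+REC. DAZL, a germ cell RNA-binding protein, had 0 in Ctrl and 62, 65 and 42 counts in HS+REC. Of the raised genes 49 had under 10 counts in at least 1 of the 6 libraries, and of the lowered genes 0 did.

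Of 13 HSP70 and HSP110 genes tested 8 (61.5%, against 4.26% of all genes) were raised and 0 lowered, with a median log2 fold change of 1.82. Without HSPA1L, which passed the filter on low counts only through HS+REC, 7 of 12 were raised and the median was 1.79. The list also holds HSPBP1, a cochaperone. HSPA4L, an HSP110, went from 19.0 ± 0.794 to 242 ± 27.3 CPM, HSPA4 from 270 ± 9.60 to 912 ± 55.5 CPM, and HSPA8, the constitutive HSC70, from 3320 ± 69.0 to 11684 ± 1032 CPM (SD, n = 3). HSPA2, a testis-rich HSP70, stood higher by 0.69 (SE 0.08), under the fold limit. Of 39 genes of the J-domain list, whose proteins load clients on HSP70 and which also holds the antisense RNA DNAJC3-AS1, 8 (20.5%) were raised and 0 lowered. Without the fold limit 15 (38.5%, against 25.3% of all genes) were higher and 9 (23.1%, against 26.5%) lower, with a median of 0.03. DNAJB1, the main partner of inducible HSP70, went from 276 ± 11.6 to 6333 ± 1396 CPM, DNAJA1 from 314 ± 11.3 to 2050 ± 211 CPM and DNAJB6, which keeps aggregating proteins soluble, from 107 ± 1.78 to 537 ± 32.6 CPM.

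Of 18 genes of HSP90 and its cochaperones 9 were raised and 0 lowered, with a median of 0.93. HSP90AA1, the inducible HSP90, stood at 2245, 2171 and 2397 CPM in Ctrl and at 11311, 11693 and 9421 CPM in HS+REC. HSP90AB1, the constitutive form, stood at 2596, 2455 and 2543 CPM in Ctrl and at 6488, 6579 and 5794 CPM in HS+REC. The rise was thus 2.25 (SE 0.08) for the inducible and 1.31 (SE 0.05) for the constitutive gene. FKBP4, an immunophilin, rose by 3.05 (SE 0.08), CHORDC1, which binds HSP90, by 2.59 (SE 0.08), AHSA1, which speeds the HSP90 ATPase, by 2.08 (SE 0.08), and STIP1, which links HSP70 to HSP90, by 1.51 (SE 0.06). NUDC, PTGES3 and SUGT1, further cochaperones, rose by 1.46, 1.21 and 1.15. FKBP5 and PPP5C, which also bind HSP90, went the other way, by -0.30 (SE 0.06) and -0.20 (SE 0.06), under the fold limit.

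Of 4 small heat shock protein genes 3 were raised, but CRYAB and HSPB8 passed the filter on low counts only through HS+REC, so that their calls are no support for the list. HSPB1, HSP27, went from 222, 229 and 215 CPM to 2142, 1472 and 1451 CPM, a rise of 2.93 (SE 0.14). CRYAB, alpha-B crystallin, had 1, 3 and 1 counts in Ctrl and 494, 381 and 242 in HS+REC, and HSPB8, a partner of BAG3, had 1, 0 and 1 counts in Ctrl and 105, 82 and 51 in HS+REC. Of 6 BAG genes only BAG3 was called, with BAG4 at -0.28 (SE 0.07) and BAG5 at 0.25 (SE 0.06). Of 14 genes of the cytosolic chaperonin CCT and prefoldin, which fold actin and tubulin, 1 was called, TCP1, from 571 ± 9.55 to 1632 ± 188 CPM (SD, n = 3), while without a fold limit 8 (57.1%, against 25.3% of all genes) were higher and 0 lower. CCT4 stood higher by 0.78 (SE 0.07) and CCT7 differed by -0.03 (SE 0.06).

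**Figure D2:**
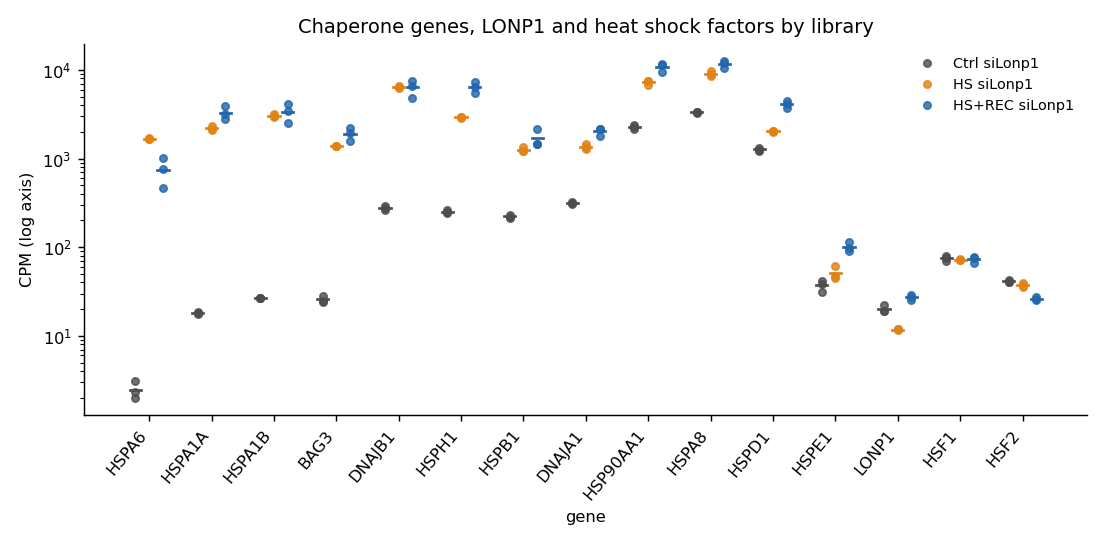
CPM on a log axis for 12 chaperone genes, LONP1, HSF1 and HSF2 in the siLonp1 libraries of Ctrl, HS and HS+REC, with 1 point for each library and a bar for the mean of 3. The chaperone points of HS+REC lie above those of Ctrl with no overlap, HSPA6 is lower in HS+REC than in HS, and HSF1 does not separate the groups.

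Of 9 genes of heat shock factors and their regulators 0 were called by edgeR or DESeq2, with 2 higher and 1 lower at an unadjusted p under 0.05. HSF1 stood at 74.9, 79.3 and 69.5 CPM in Ctrl and at 77.5, 66.0 and 74.9 CPM in HS+REC, overlapping groups with a log2 fold change of -0.04 (SE 0.07). HSF2, which can form trimers with HSF1, stood at 40.7, 43.1 and 40.1 CPM in Ctrl against 25.5, 26.1 and 27.4 CPM in HS+REC, a change of -0.65 (SE 0.07) that is under the fold limit. LONP1, the silenced gene, stood at 19.2, 22.3 and 19.3 CPM in Ctrl, at 11.8, 11.6 and 11.9 CPM in HS and at 27.3, 25.4 and 28.8 CPM in HS+REC. Its level therefore fell by the end of heat and rose above Ctrl after recovery, by 0.42 (SE 0.08) against Ctrl (adjusted p = 0.00013 in edgeR's quasi-likelihood test) and by 1.21 (SE 0.08) against HS. In scramble cells LONP1 changed by 0.00 after recovery. The difference between the arms was 0.42 with an adjusted p of 0.044 by edgeR, which rose to 0.13 without Ctrl siLonp1 replicate 1 and passed the limit in 3 of 12 fits that each left out 1 library.

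In mitochondria, where Lonp1 acts, 2 of 18 chaperone and protease genes (11.1%, against 4.26% of all genes) were raised and 0 lowered, with a median of 0.02. Without the fold limit 6 (33.3%, against 25.3%) were higher and 5 (27.8%, against 26.5%) lower. The raised genes were HSPD1 and HSPE1, the HSP60 and HSP10 of the matrix chaperonin, which share a promoter region. HSPD1 went from 1254, 1231 and 1309 CPM to 4172, 4455 and 3698 CPM and HSPE1 from 38.6, 30.8 and 42.0 CPM to 98.0, 115 and 90.0 CPM, rises of 1.70 (SE 0.07) and 1.44 (SE 0.13). HSPA9, the mitochondrial HSP70, differed by 0.21 (SE 0.05) and TRAP1, the mitochondrial HSP90, by -0.04 (SE 0.07). The proteases AFG3L2, SPG7 and CLPP differed by -0.66 (SE 0.05), -0.42 (SE 0.07) and 0.04 (SE 0.08), and PMPCA, which cleaves import signals, by -0.50 (SE 0.06).

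Of 77 mitochondrial ribosomal protein genes 2 (2.6%, against 4.26% of all genes) were raised and 0 lowered, with a median of -0.01. MRPL18 rose from 99.3, 95.9 and 96.5 CPM to 957, 824 and 732 CPM and MRPS6 from 51.9, 51.1 and 53.7 CPM to 132, 124 and 117 CPM. MRPL18 also has a cytosolic form that joins ribosomes during heat stress. None of 80 nuclear-encoded respiratory chain genes, 28 import genes or 18 genes of the tricarboxylic acid cycle was called by edgeR or DESeq2. Without the fold limit 16, 4 and 1 of them (20, 14.3 and 5.56%, against 25.3% of all genes) were higher and 4, 5 and 2 (5.0, 17.9 and 11.1%, against 26.5%) were lower, and at an unadjusted p under 0.05 these counts were 19, 7 and 1 and 6, 6 and 3. Their medians of 0.07, -0.03 and -0.04 lie within the shift of about 0.09 that another scaling gives to all genes, and that of the respiratory chain turned to -0.02 with library size only. Of 50 proteasome genes, antisense RNAs of subunit genes and PSMC3IP among them, 0 were called by edgeR or DESeq2, with a median of 0.02, which turned to -0.06 with library size only, and without the fold limit 10 (20%) were higher and 9 (18%) lower (12 and 9 at an unadjusted p under 0.05).

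Of 20 genes of ubiquitin and autophagy receptors 3 (15.0%, against 4.26% of all genes) were raised and 0 lowered. Without the fold limit 11 (55.0%, against 25.3%) were higher and 4 (20%, against 26.5%) lower. ZFAND2A, a zinc finger partner of the proteasome, went from 15.6, 18.9 and 16.1 CPM to 343, 308 and 270 CPM. UBB, which encodes ubiquitin, rose by 1.39 (SE 0.09). SQSTM1, the autophagy receptor p62, changed by -0.36 (SE 0.06), under the fold limit.

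Genes of the immediate early response, which are transcribed within minutes of a stimulus and whose mRNAs are short-lived, were still above Ctrl in part. Of 12 AP-1 genes 4 (33.3%) were raised and of 32 EGR, IER and related genes 8 (25.0%) were raised, against 4.26% of all genes. In either list 0 were lowered, and the medians were 0.26 and 0.47. Without NR4A3, a nuclear receptor that passed the filter on low counts only through HS+REC, the second list had 7 of 31 raised and a median of 0.44. FOS stood at 5.81, 4.96 and 5.04 CPM in Ctrl, at 305, 333 and 322 CPM in HS and at 26.4, 19.9 and 15.6 CPM in HS+REC. EGR1 stood at 69.4, 77.3 and 62.8 CPM in Ctrl, at 1216, 1461 and 1388 CPM in HS and at 209, 168 and 142 CPM in HS+REC. DUSP1, a phosphatase of MAP kinases, stood at 11.2, 10.5 and 10.1 CPM in Ctrl, at 85.1, 91.2 and 86.3 CPM in HS and at 38.7, 29.3 and 20.3 CPM in HS+REC. These genes were highest at the end of heat. Their log2 changes from HS to HS+REC were -3.95 (SE 0.12) for FOS, -2.97 (SE 0.12) for EGR1 and -1.57 (SE 0.15) for DUSP1. EGR2 changed over the same step by -2.81 and IER5 by -0.84, and JUNB stood at -0.31 against Ctrl after recovery, under the fold limit. The means of ATF3, a repressor of stress genes, and of the matrix protein genes CYR61 and CTGF were no higher in HS than in HS+REC. ATF3 was 4.69 ± 0.885 CPM in Ctrl and 32.0 ± 10.5 CPM in HS+REC, and CYR61 and CTGF rose by 1.29 (SE 0.10) and 1.28 (SE 0.09).

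Other genes rose mainly after the heat had ended. CHORDC1 stood at 103, 116 and 110 CPM in Ctrl, at 154, 137 and 165 CPM in HS and at 638, 708 and 639 CPM in HS+REC. PTGES3, the HSP90 cochaperone p23, stood at 642, 668 and 705 CPM in Ctrl, at 706, 648 and 665 CPM in HS and at 1563, 1694 and 1420 CPM in HS+REC. The HS libraries of PTGES3 thus overlapped with Ctrl, whereas those of HS+REC did not. VLDLR, a lipoprotein receptor and ATF4 target, and XBP1, a transcription factor of the endoplasmic reticulum, showed the same order, with changes from HS to HS+REC of 2.31 (SE 0.11) and 1.17 (SE 0.07). KLF6, a zinc finger factor, rose by 1.02 over the same step. HS and HS+REC were each compared with the same Ctrl libraries, so both values of a gene share them. EGR1, IER5 and VLDLR were named after their values were seen.

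**Figure D3:**
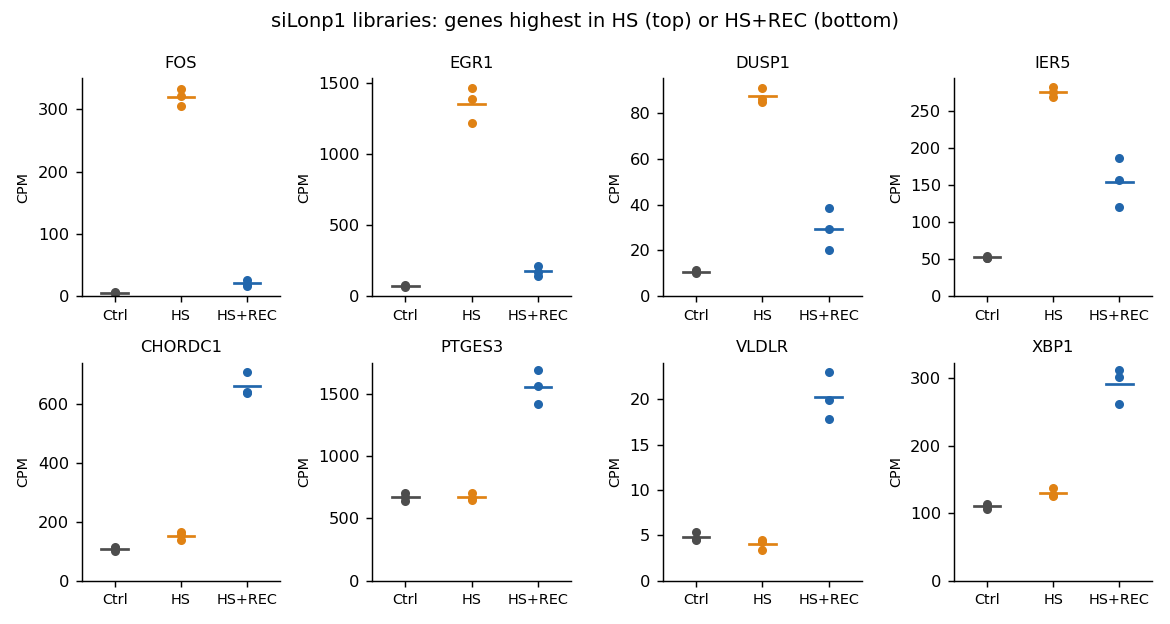
CPM of 8 genes in the 9 siLonp1 libraries, grouped as Ctrl, HS and HS+REC, with 1 point for each library and a bar for the mean of 3. FOS, EGR1, DUSP1 and IER5 (top) are highest in HS, and CHORDC1, PTGES3, VLDLR and XBP1 (bottom) are highest in HS+REC.

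The integrated stress response was one of the lists with most calls. Of 26 genes 12 (46.2%, against 4.26% of all genes) were raised and 1 (3.85%, against 1.17%) was lowered, with a median of 0.81. Without the fold limit 20 (76.9%, against 25.3%) were higher and 1 (3.85%, against 26.5%) was lower. The members PHGDH, PSAT1, PSPH, SHMT2, MTHFD2, ALDH1L2 and PYCR1 also belong to a list of mitochondrial one-carbon and proline enzymes. In that list 0 of 10 genes were raised or lowered, with a median of 0.03. SESN2, a stress sensor that restrains mTORC1, went from 5.00, 4.62 and 6.68 CPM to 127, 113 and 99.9 CPM. DDIT4, another inhibitor of mTORC1, went from 10.9, 15.5 and 14.8 CPM to 260, 212 and 147 CPM, and CEBPB, a transcription factor, from 6.09, 6.51 and 7.01 CPM to 51.4, 40.7 and 31.4 CPM. DDIT3, the factor CHOP, rose by 1.88 (SE 0.11), TRIB3, its target, by 1.51 (SE 0.07), and PPP1R15A, which ends the block of translation, by 1.16 (SE 0.10). ATF4, whose product is controlled mainly by translation, changed by 0.24 (SE 0.05), and ATF5 was the member that fell, by 1.03 on the log2 scale, which became -0.96 without Ctrl replicate 2 and -0.98 without HS+REC replicate 2. Of 24 genes of the unfolded protein response of the endoplasmic reticulum 4 (16.7%, against 4.26% of all genes) were raised and 0 lowered. The raised ones were HERPUD1, DNAJB9, ERN1 and XBP1, by 2.46, 1.55, 1.49 and 1.40. Without the fold limit 7 (29.2%, against 25.3%) were higher and 3 (12.5%, against 26.5%) lower. HSPA5, the chaperone BiP, stood at 787, 807 and 813 CPM in Ctrl and 929, 986 and 903 CPM in HS+REC, a change of 0.23 (SE 0.05). The median of this list, 0.06, turned to -0.03 with library size only.

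Metallothioneins are small proteins that bind zinc and copper. A list of 10 tested genes was made of metallothioneins with their activator MTF1 and the zinc exporter SLC30A1. Of these 7 (70.0%, against 4.26% of all genes) were raised and 0 lowered, with a median of 1.33. Without MT1H and MT1M, which passed the filter on low counts only through HS+REC, 5 of 8 were raised and the median was 1.19. MT2A went from 231, 246 and 206 CPM to 615, 533 and 568 CPM, MT1E from 33.0, 32.8 and 34.6 CPM to 90.9, 75.8 and 86.9 CPM and MT1G from 11.9, 14.4 and 12.1 CPM to 35.4, 28.0 and 37.2 CPM. MT2A, MT1E and MT1G rose from HS to HS+REC by 0.76, 1.06 and 1.27, respectively. MT1H had 16, 8 and 6 counts in Ctrl and 234, 148 and 246 counts in HS+REC. MT1X stood higher by 0.95 (SE 0.08) and MTF1 by 0.61 (SE 0.07), both under the fold limit. SLC30A1 rose by 1.05 (SE 0.08), which became 0.93 without HS+REC replicate 2. As the metallothionein genes are close copies of each other, the split between them is uncertain.

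**Figure D4:**
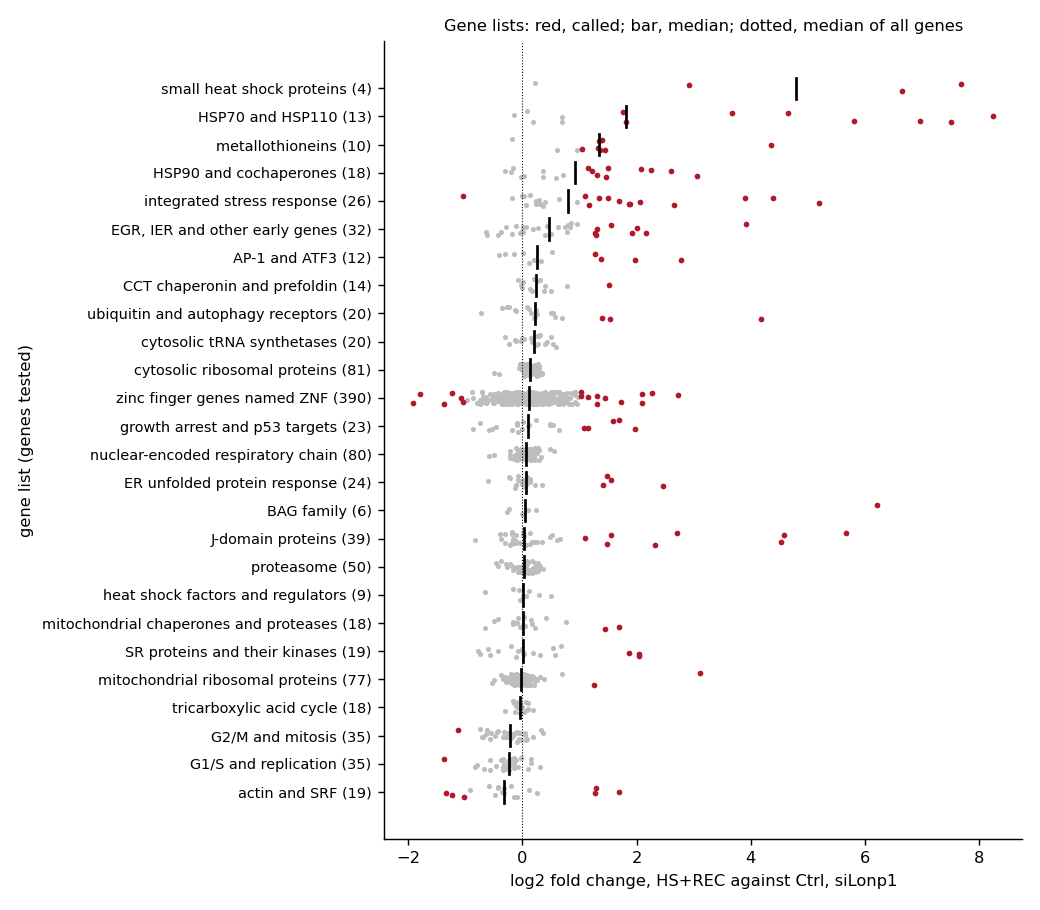
Log2 fold change of HS+REC against Ctrl in siLonp1 cells for the tested genes of 26 lists, 1 point for each gene, with the number tested in brackets. Red points are called genes, black bars are list medians and the dotted line is the median of all genes. The bars of the HSP70, HSP90, metallothionein and integrated stress response lists lie to the right of the dotted line, and the bar of the small heat shock proteins rests on CRYAB and HSPB8, which had 3 counts or fewer in each Ctrl library.

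Of 23 genes of growth arrest and p53 targets 5 (21.7%, against 4.26% of all genes) were raised and 0 lowered. Without the fold limit 10 (43.5%, against 25.3%) were higher and 6 (26.1%, against 26.5%) lower. CDKN1A, the inhibitor p21, went from 9.14, 7.69 and 8.63 CPM to 32.3, 27.9 and 22.4 CPM and CDKN2B, the inhibitor p15, from 35.7, 35.3 and 37.5 CPM to 114, 104 and 110 CPM. SESN3 rose by 1.98 (SE 0.10) and PMAIP1, the pro-death factor NOXA, by 1.15 (SE 0.09). BBC3, the factor PUMA, rose by 1.08 (SE 0.14), which became 0.99 without HS+REC replicate 1, and MDM2, which degrades p53, changed by -0.86 (SE 0.07), under the fold limit. MCL1, an inhibitor of cell death, rose by 1.12 (SE 0.07). Of 23 NF-kB targets 2 (8.7%, against 4.26% of all genes) were raised and 1, UBD, was lowered (4.35%, against 1.17%). Without the fold limit 4 (17.4%, against 25.3%) were higher and 9 (39.1%, against 26.5%) lower. The median was -0.10, or -0.04 without UBD, which passed the filter on low counts only through Ctrl. The chemokine genes CCL20 and CXCL8 rose by 2.47 (SE 0.15) and 1.34 (SE 0.10). Of 23 NRF2 targets 1 was raised (4.35%, against 4.26% of all genes), HMOX1, heme oxygenase, from 4.95 ± 0.559 to 13.3 ± 2.38 CPM (SD, n = 3).

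In the splicing list, 3 of 19 SR protein and kinase genes (15.8%, against 4.26% of all genes) were raised and 0 lowered. All of the raised ones were CLK kinases, which phosphorylate SR proteins. CLK1 stood at 23.1, 25.2 and 23.9 CPM in Ctrl and at 111, 109 and 76.4 CPM in HS+REC, CLK4 at 3.54, 4.10 and 3.59 CPM and 16.4, 15.9 and 13.9 CPM, and CLK3 at 19.7, 22.1 and 18.9 CPM and 80.6, 67.3 and 75.2 CPM. The SR proteins SRSF2, SRSF4, SRSF5 and SRSF6 changed by -0.74, -0.57, -0.61 and -0.78 on the log2 scale, under the fold limit. Of 81 cytosolic ribosomal protein genes 0 were called by edgeR or DESeq2, while without the fold limit 22 (27.2%, against 25.3% of all genes) were higher and 2 (2.47%, against 26.5%) were lower (27 and 2 at an unadjusted p under 0.05), with a median of 0.13. Of 20 cytosolic tRNA synthetases 0 were called by edgeR or DESeq2, while without the fold limit, and likewise at an unadjusted p under 0.05, 12 (60.0%) were higher and 3 (15.0%) lower, with a median of 0.20.

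The 12 largest falls included UBD, HAS3 and RGMA. UBD, a ubiquitin-like modifier, stood at 2.47, 2.63 and 3.39 CPM in Ctrl and at 0.311, 0.378 and 0.663 CPM in HS+REC, a change of -2.65 (SE 0.22). HAS3, a hyaluronan synthase, stood at 212, 207 and 199 CPM in Ctrl and at 61.9, 62.3 and 73.0 CPM in HS+REC. RGMA, a BMP coreceptor, stood at 55.8, 57.5 and 50.3 CPM in Ctrl and at 15.7, 14.7 and 19.1 CPM in HS+REC. ARHGAP29, a brake on the GTPase RhoA, went from 45.3 ± 2.61 to 12.7 ± 1.73 CPM, OAS2, an antiviral enzyme, from 8.15 ± 1.05 to 2.22 ± 0.138 CPM and NTF3, a neurotrophin, from 2.03 ± 0.165 to 0.533 ± 0.158 CPM (SD, n = 3). The others of the 12 largest falls were ZNF792, ZNF876P, NIPAL4, LOC389602, KIAA0922 and SPATA2L, with log2 fold changes of -1.91, -1.79, -1.73, -1.69, -1.65 and -1.64, respectively. Of 390 zinc finger genes named ZNF 11 (2.82%, against 4.26% of all genes) were raised and 6 (1.54%, against 1.17%) lowered.

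Many cell cycle genes were lower by small steps. Of 35 genes of G1/S and replication 1 was lowered and 0 raised, but without the fold limit 25 (71.4%, against 26.5% of all genes) were lower and 3 (8.57%, against 25.3%) higher, with a median of -0.24. Of 35 genes of G2/M and mitosis 1 was lowered and 0 raised, and without the fold limit 20 (57.1%) were lower and 2 (5.71%) higher, with a median of -0.22. CCNE2, cyclin E2, stood at 42.4, 44.8 and 46.4 CPM in Ctrl and at 13.2, 16.2 and 22.2 CPM in HS+REC, and KIF23, a kinesin of cytokinesis, fell by 1.13 on the log2 scale. CCND1, cyclin D1, and PCNA, the replication clamp, changed by -0.66 (SE 0.08) and -0.56 (SE 0.06), under the fold limit.

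In the list of actin and SRF target genes, 19 were tested, with a median of -0.33. Of these 3 (15.8%, against 4.26% of all genes) were raised and 3 (15.8%, against 1.17%) were lowered. VCL, vinculin, which ties actin to adhesions, stood at 995, 976 and 957 CPM in Ctrl and at 359, 389 and 410 CPM in HS+REC. TAGLN, transgelin, stood at 87.4, 86.0 and 74.4 CPM in Ctrl and at 39.0, 31.0 and 35.6 CPM in HS+REC. MYL9, a myosin light chain, fell by 1.02, which became -0.90 without HS+REC replicate 2 and -0.997 without Ctrl replicate 2. The raised members were CYR61, CTGF and ANKRD1, which are also targets of YAP, and ANKRD1 rose by 1.69 (SE 0.15). ACTB and ACTG1, the cytoplasmic actins, changed by -0.32 (SE 0.06) and -0.43 (SE 0.07). Of 21 glycolysis genes 1 (4.76%, against 1.17% of all genes) was lowered and 0 raised. The lowered gene was SLC2A1, the glucose transporter GLUT1, which went from 1147, 1088 and 1120 CPM to 504, 469 and 561 CPM. Without the fold limit 6 (28.6%, against 25.3%) were higher and 4 (19.0%, against 26.5%) lower.

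The same step was measured in scramble cells, whose libraries are separate from those above. There 456 genes (3.67%) were raised and 83 (0.667%) lowered among the same 12435. These genes were filtered on the siLonp1 libraries, so genes above the filter only in scramble cells could not be counted. The counts and shares of the arms are therefore tilted toward siLonp1 cells. Of the 530 genes raised in siLonp1 cells 406 (76.6%) were also raised in scramble cells, where they made 89.0% of those raised, and of the 146 lowered genes 63 (43.2% of them, 75.9% of those of scramble cells) were shared. Of the 530 raised genes 529, and of the 146 lowered genes 146, changed in the same direction in scramble cells, and across the 12435 genes, which are not independent replicates, the effects had a Pearson r of 0.934 and a Spearman rho of 0.858. Of the 124 genes raised in siLonp1 cells alone 104 passed the FDR limit with the same direction in scramble cells, and 26 passed the test of the difference. Of the 83 lowered in siLonp1 cells alone 81 passed that limit likewise, and 18 passed the test of the difference. The medians in siLonp1 and scramble cells were 1.15 against 0.78 over the 124 genes and -1.10 against -0.82 over the 83. As both sets were chosen by passing the limits in siLonp1 cells alone, this order of the medians was fixed in advance.

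Tested as a difference between the arms, the effect was higher in siLonp1 than in scramble cells for 87 genes (0.700%) and lower for 120 (0.965%), by edgeR's quasi-likelihood test at an adjusted p of at most 0.05. Above 2-fold there were 9 (0.0724%) and 4 (0.0322%). Leaving out 1 of the 12 libraries moved these counts to between 42 and 133 and between 49 and 172, with the lowest without Ctrl scramble replicate 1 and HS+REC scramble replicate 1 and the highest without HS+REC scramble replicate 3. UBD fell by 2.65 in siLonp1 and by 1.05 in scramble cells. CXCR4, a chemokine receptor, stood at 0.749, 0.652 and 0.597 CPM in Ctrl scramble and 1.84, 1.25 and 1.75 CPM in Ctrl siLonp1, and at 1.84, 2.09 and 2.36 CPM in HS+REC scramble and 1.75, 1.92 and 1.61 CPM in HS+REC siLonp1. The arms of CXCR4 thus did not overlap in Ctrl. EGR3, an early transcription factor, had means of 7.82 ± 0.322 and 16.2 ± 1.60 CPM (SD, n = 3) in unheated scramble and siLonp1 cells, respectively, and the HS+REC libraries of both arms overlapped. The differences were -1.60 (SE 0.30) for UBD, -1.53 (SE 0.25) for CXCR4 and -1.05 (SE 0.18) for EGR3.

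LURAP1L, an adaptor of NF-kB signalling, rose by 3.15 (SE 0.15) in siLonp1 and by 1.75 (SE 0.14) in scramble cells. MIR1247, counted under the symbol of a microRNA precursor and at 14 to 18 counts in the Ctrl siLonp1 libraries, rose by 1.98 (SE 0.23) and 0.33 (SE 0.20), and GAS6-AS2, an antisense RNA, by 1.59 (SE 0.13) and 0.40 (SE 0.17). For an antisense gene, reads of the gene on the other strand may enter the count, since the strand setting is not given in the sources used here. UBD, CXCR4, EGR3, LURAP1L, MIR1247 and GAS6-AS2 passed the limit in each of 12 fits that left out 1 library. All of these fits used the genes that passed the filter on low counts in the siLonp1 libraries. UBD passed that filter only through Ctrl siLonp1, and MIR1247 and ARL14 only through HS+REC siLonp1. For these genes the selection favours a larger change in siLonp1 cells, so their kept calls are no support. SGK1, a serum-induced kinase, GLIS2, a zinc finger factor, ARL14, a small GTPase, and EGR4 passed in 8, 6, 3 and 11 of the 12, with adjusted p-values by edgeR of up to 0.087 and 0.10 without Ctrl scramble replicate 2 for SGK1 and GLIS2, 0.15 without Ctrl scramble replicate 3 for ARL14 and 0.087 without Ctrl scramble replicate 2 for EGR4.

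**Figure D5:**
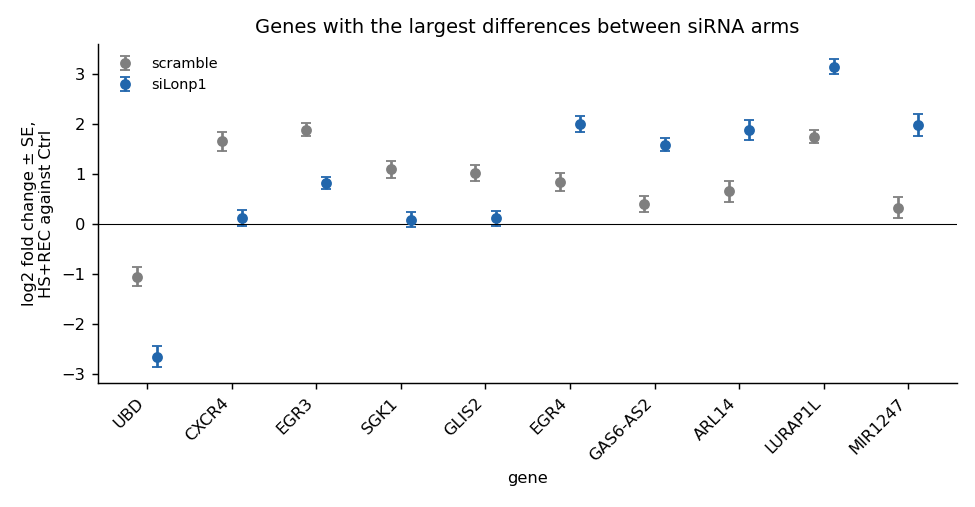
Log2 fold change of HS+REC against Ctrl in scramble (grey) and siLonp1 (blue) cells for the 5 genes with the largest difference in each direction, with error bars of 1 SE from the edgeR fit. CXCR4, SGK1 and GLIS2 lie near 0 in siLonp1 cells and above 1 in scramble cells. The 5 genes on the right lie higher in siLonp1 cells. UBD, MIR1247 and ARL14 passed the filter on low counts through 1 siLonp1 group only.

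Within the lists, 5 of 26 genes of the integrated stress response passed this test as higher in siLonp1 cells, against 0.700% of all genes. The median over the 26 genes of the difference between the arms was 0.20. The 5 genes were SESN2, TRIB3, VLDLR, CEBPG and PSPH, an enzyme of serine synthesis. SESN2 rose by 4.38 (SE 0.12) in siLonp1 and by 3.50 in scramble cells. CEBPB and CHAC1 passed as higher only under other settings, among them DESeq2 and no filter on low counts. PPP1R15A passed as lower, at -0.44, without HS+REC siLonp1 replicate 1. SESN2 and TRIB3 kept the call in all 12 fits that left out 1 library, VLDLR, CEBPG and PSPH in 6, 4 and 8 of them, with the highest adjusted p by edgeR, 0.0937, 0.103 and 0.0815, without Ctrl scramble replicate 2. Of the metallothionein list 3 of 10 tested genes passed as higher, against 0.700% of all genes. These 3, MT1G, MT1X and SLC30A1, lost the call in 4, 11 and 10 of 12 fits without 1 library. Of the splicing list 4 of 19 genes passed as lower in siLonp1 cells, against 0.965% of all genes. These were the SR proteins SRSF2, SRSF4, SRSF5 and SRSF6, of which SRSF4 and SRSF6 kept the call in all 12. Among chaperones HSPH1 rose by 4.65 against 4.05 and HSPA4L by 3.67 against 2.92, with both calls kept in all 12. AHSA1, CLU, ZFAND2A, DNAJA1 and HSPD1 passed the test too, and kept the call in 11, 7, 4, 3 and 2 of the 12, while the protease AFG3L2, lower in siLonp1 cells, kept it in 3 and lost it with both other scalings. HSPA6, HSPA1A, HSPA1B and DNAJB1 differed between the arms by 0.37, -0.41, -0.11 and -0.17 with adjusted p-values by edgeR of 0.73, 0.15, 0.83 and 0.67. The difference of HSPA1A passed the test with no filter on low counts, at -0.43, and without HS+REC siLonp1 replicate 1, at -0.54.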

How the data were processed

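RNAseq counts of 18 libraries in 6 groups were used, with the 6 siLonp1 libraries of Ctrl and HS+REC compared. The authors prepared stranded mRNA libraries, sequenced paired ends, aligned them to hg38 with STAR 2.7.3a and counted reads per gene with featureCounts, and the deposited values are raw counts. The strand setting is not given in the sources used here. Genes with CPM above 1 in at least 3 of the 6 libraries entered the test of edgeR 4.0.16 under R 4.3.3 (TMM, quasi-likelihood test, 1 model over 18 libraries with 6 group means, Benjamini-Hochberg over all genes tested). Calls needed FDR at most 0.05 and a fold change above 2. CPM values use TMM factors. The difference between arms was an interaction contrast. Scripts were tested on simulated data. Replicates differed beyond counting error, so none was treated as a duplicate. Genes were named by rule: LONP1, HSF1 and HSF2, the 12 largest rises and falls with at least 10 counts in each library and groups that did not overlap, up to 4 called members of each list, members of lists of at most 20, 3 genes of low count and 10 of the interaction. Other list members, and genes marked so, were named after their values were seen, and a few list members that enter the counts are not reported here by name. The comparison and the lists were chosen with earlier results of these data known. Promoters are RefSeq's, on GRCh38.p14. Alternatives were other scalings and filters, DESeq2 1.42.0, fewer groups, a replicate block, stricter limits and leaving out each library.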

Additional observations from a re-analysis of the deposited data

Results flagged for a closer look

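The effect of recovery differed between siLonp1 and scramble cells, by the test of the difference in edgeR, for the genes given here as log2 fold changes of siLonp1 minus those of scramble cells. Among the stress response genes the differences were 0.89 for SESN2, 0.66 for VLDLR, 0.50 for TRIB3, 0.31 for CEBPG, 0.37 for PSPH and 0.75 for HERPUD1. Among chaperones and their partners they were 0.59 for HSPH1, 0.75 for HSPA4L, 0.40 for DNAJA1, 0.48 for AHSA1, 0.35 for HSPD1, 0.71 for CLU and 0.57 for ZFAND2A, with -0.29 for the protease AFG3L2, 0.42 for LONP1 and 0.62 for DEDD2. For the metal response they were 0.75 for MT1G, 0.48 for MT1X and 0.47 for SLC30A1, and INHBE, an activin subunit, differed by 0.72.

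Higher effects in siLonp1 cells were also found for MIR1247 at 1.65, LURAP1L at 1.40, ARL14 at 1.22, GAS6-AS2 at 1.19 and EGR4 at 1.15. Lower effects were found for UBD at -1.60, CXCR4 at -1.53, EGR3 at -1.05, SGK1 at -1.01, GLIS2 at -0.91, ARHGAP29 at -0.73, KIAA0922 at -0.64 and KLF10 at -0.43. The splicing factors SRSF2, SRSF4, SRSF5 and SRSF6 differed by -0.32, -0.49, -0.35 and -0.39. VCL differed by -0.62, SLC2A1 by -0.41 and KIF23 by -0.41. Of the 40 genes given here 19 kept the call in each of 12 fits that left out 1 library, namely HSPH1, HSPA4L, SESN2, TRIB3, HERPUD1, INHBE, MIR1247, LURAP1L, GAS6-AS2, UBD, CXCR4, EGR3, ARHGAP29, KIAA0922, KLF10, SRSF4, SRSF6, VCL and KIF23. The others lost it in at least 1 of these fits. UBD, MIR1247 and ARL14 passed the filter on low counts through 1 siLonp1 group only. This selection favours a larger change in siLonp1 cells, so their calls are no support.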

How the results depend on the processing

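The 530 raised and 146 lowered genes became 1086 and 212 with no filter on low counts, and 3141 and 3297 with no fold change limit. They were 379 and 119 among genes above 1 CPM in all 6 libraries and 461 and 204 with library size only. Without 1 library the counts ran from 516 to 554 and from 134 to 190, with the 190 without HS+REC replicate 3. The 87 genes with a higher and the 120 with a lower effect in siLonp1 cells were 156 and 162 with DESeq2, 112 and 182 with no filter, 26 and 32 at FDR 0.01, and 9 and 4 above 2-fold, and without 1 library they ran from 42 to 133 and from 49 to 172. The cause was not tested. With the replicate number as a block the counts were 532, 146, 72 and 98. Same-numbered Ctrl and HS+REC libraries had correlations of 0.131, -0.0235 and -0.287, so the numbers were not taken as pairs. No direction of a named gene past the threshold was reversed. Another scaling, library size only, moved the median of all genes to -0.09. Low counts limit CHRNA2, MRC1, DAZL, CRYAB and HSPB8, for which no fold is given.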
